A study of Mus musculus with 24 samples.

Results

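The 9 mouse Pax genes, Pax1 to Pax9, encode transcription factors that share a paired DNA-binding domain. They were followed here in calibrated RNA-seq (cRNA-seq) of embryonic stem cells (ESCs) in which Polycomb repressive complex 1 (PRC1) could be removed or made catalytically inactive. Each gene was taken by its symbol from a table of 20633 transcript rows and 19409 gene symbols, and where a symbol had more than 1 row the row with the largest summed value over the libraries was used. The PRC1CKO line (Ring1a-/-; Ring1b fl/fl; Rosa26::ERT2-Cre, clone B9) lacks RING1A and loses RING1B on treatment with 4-hydroxytamoxifen (OHT). In the PRC1CPM line (clone 41), Ring1a carries I50A/D53K throughout, the Rosa26::ERT2-Cre transgene is again present, the floxed conditional Ring1b (WT->I53A/D56K) is homozygous, and OHT exchanges wild-type RING1B for its mutant form, so that both are then catalytically inactive. Both lines derive from male E14 cells, each is a single clone, and both carry the Cre fusion at Rosa26 and an altered Ring1a before any treatment. Untreated cells and cells kept with 800 nM OHT for 72 h were profiled in 3 replicates each, which gives 12 RNA libraries with Drosophila SG4 cells as the spike-in. The unit is the normalised read count, the reads counted over the gene body divided by a size factor from the spike-in, and 14668159 to 27016156 reads per library lay on genes. Because line, clone and Ring1a allele differ together between the lines, their parts in a difference between lines cannot be told apart.

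Pax proteins fall into 4 groups by their domains: Pax1 and Pax9 have a paired domain and an octapeptide without a homeodomain, Pax2, Pax5 and Pax8 keep a partial homeodomain, Pax3 and Pax7 have an octapeptide and a full homeodomain, and Pax4 and Pax6 have a homeodomain without the octapeptide. Each is used in particular embryonic territories, such as sclerotome, kidney, neural crest, muscle and eye, and most are silent in pluripotent cells. Polycomb complexes hold many such developmental genes silent in ESCs: PRC1 places ubiquitin on histone H2A through RING1A or RING1B, PRC2 methylates histone H3, and both gather at promoters rich in CpG dinucleotides.

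For the promoters, RefSeq windows reaching 250 bases before to 50 bases after a start site (build GRCm38.p6) matched 7 of the 9 genes, all but Pax3 and Pax4. The RefSeq and deposited starts coincided for Pax1, Pax6, Pax7 and Pax8. The sequences before 3 of these start sites are given to set genes with a steep rise in PRC1CKO cells, Pax1 and Pax7, beside Pax8, which rose least. They are written 5′ to 3′ in the direction of transcription, with each CG dinucleotide in capitals, from chr2:147364744-147364993 (plus strand, Pax1), chr4:139832969-139833218 (minus strand, Pax7) and chr2:24475600-24475849 (minus strand, Pax8).
Pax1: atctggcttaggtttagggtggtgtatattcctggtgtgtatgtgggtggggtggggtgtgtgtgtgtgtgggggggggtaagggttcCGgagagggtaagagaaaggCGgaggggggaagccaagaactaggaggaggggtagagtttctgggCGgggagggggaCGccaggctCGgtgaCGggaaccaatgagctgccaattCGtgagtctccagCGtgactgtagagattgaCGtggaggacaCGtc
Pax7: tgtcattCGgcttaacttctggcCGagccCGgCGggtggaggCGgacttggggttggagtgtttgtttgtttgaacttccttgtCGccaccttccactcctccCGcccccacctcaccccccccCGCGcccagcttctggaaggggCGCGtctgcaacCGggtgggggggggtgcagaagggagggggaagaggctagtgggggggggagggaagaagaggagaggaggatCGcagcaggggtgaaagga
Pax8: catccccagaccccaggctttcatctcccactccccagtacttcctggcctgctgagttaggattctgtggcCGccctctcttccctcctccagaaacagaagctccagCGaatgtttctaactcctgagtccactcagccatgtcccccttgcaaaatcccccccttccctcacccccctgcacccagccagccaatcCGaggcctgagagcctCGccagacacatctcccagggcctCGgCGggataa

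The motif counted was CG, which reads the same on both strands and does not overlap itself. These stretches hold 10, 13 and 6 of them. In the whole 300-base windows the counts were 13 for Pax1, 17 for Pax7 and 7 for Pax8, and 37.9%, 31.4% and 52.1% of the 32851 RefSeq mouse promoters held at least as many (median 7, with at least 1 in 94.6%). Over the 1001 bases centred on the deposited start the order was Pax7 with 78 CG dinucleotides, Pax2 with 69, Pax1 with 63, Pax3 with 57, Pax6 and Pax9 with 44 each, Pax5 with 33, Pax8 with 18 and Pax4 with 3. The median was 57 over all rows tested and 56 over the rows that rose in PRC1CKO cells. The other 300-base windows held 18 and 16 CG dinucleotides for Pax6, 23 for Pax5, 11 for Pax9 and 7, 23 and 30 for Pax2. The 3 printed genes were picked by their response, and a relation of CG number to the rise was not tested. These counts describe the windows and say nothing of which factor binds them.

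The deposited gene bodies are given on GRCm38. Pax1 (chr2:147364994-147375048, 5 exons), Pax6 (chr2:105668896-105697364, 13 exons), Pax2 (chr19:44757394-44837869, 10 exons) and Pax9 (chr12:56695639-56711230, 4 exons) are on the plus strand. Pax3 (chr1:78101267-78197136, 9 exons), Pax4 (chr6:28442334-28449340, 11 exons), Pax5 (chr4:44531506-44710440, 10 exons), Pax7 (chr4:139738081-139832968, 9 exons) and Pax8 (chr2:24420551-24475599, 12 exons) are on the minus strand. Exons made up 3.52% of the counted span for Pax3 and 27.8% for Pax9, the lowest and highest of the family, so most of each span is intron.

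Ring1 and Rnf2, the edited genes that encode RING1A and RING1B, were looked at first. In PRC1CKO cells the 3 untreated libraries held 313, 204 and 166 normalised reads of Ring1 and the OHT-treated ones 281, 251 and 229. Rnf2 had 1756, 1436 and 1385 reads before and 1489, 1565 and 1585 after treatment. The corresponding PRC1CPM values were 179, 182 and 125 against 161, 111 and 148 for Ring1, and 1850, 1659 and 1578 against 1724, 1295 and 1513 for Rnf2. Neither gene changed on treatment in either line (limma, adjusted p between 0.75 and 0.963). Each edit concerns a few exons while reads were summed over the gene body, so these counts do not check the labels.

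The study asks whether Polycomb repression needs the catalytic activity of PRC1, with complete removal of the complex as the reference. The first comparison is that reference, OHT-treated against untreated PRC1CKO cells. All 8 Pax genes that could be tested rose, against 16.5% of the 16940 rows tested that were called higher. A call needed a fold change above 1.5 together with an adjusted p below 0.05. Their log2 fold changes ran from 1.28 for Pax8 to 5.97 for Pax3, with a median of 3.49 beside a median of 0.12 for all rows. For every one of the 8 the 3 treated libraries lay above the 3 untreated ones, a pattern seen in 22.1% of all rows. In bulk RNA, more cells that express a gene and more RNA in each cell cannot be told apart. The p-values rest on 1 estimate per row of the spread between replicates, pooled over all 12 libraries of both lines. Each line is 1 clone, so they do not measure the spread between clones. Pax4, which acts in the endocrine pancreas, was not tested: it had 2 reads in a single OHT-treated PRC1CKO library and 0 in the other 11. Testing needed 10 reads in at least 3 libraries. Pax1 and Pax9 reached this in OHT-treated libraries alone, so a rise was a condition of their being tested.

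**Figure D1:**
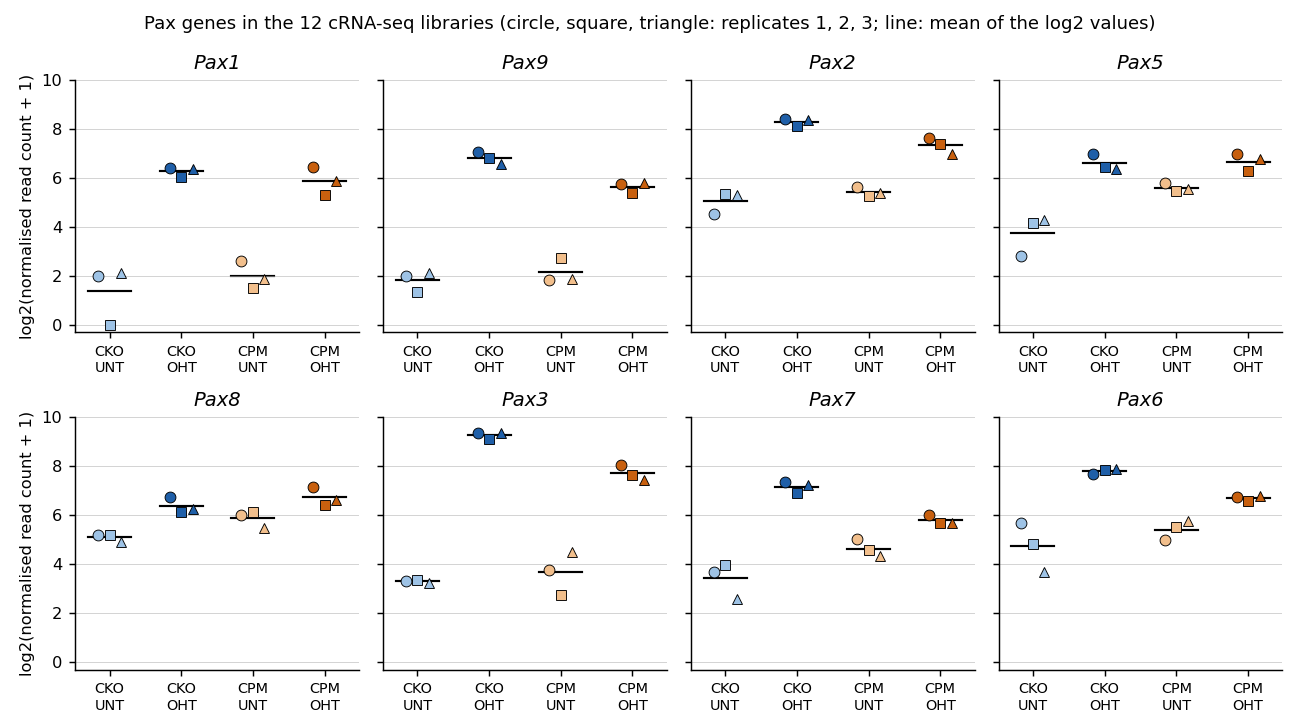
Normalised read count of the 8 tested Pax genes in each library, as log2(value + 1) on the vertical axis, with the 4 conditions along the horizontal axis (UNT, untreated; OHT, treated). Circles, squares and triangles are replicates 1, 2 and 3 and the line is the mean of the log2 values; treated libraries sit above the untreated libraries of the same line in all 8 panels, with the widest gap for Pax3 in PRC1CKO cells.

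Pax3 and Pax7 are the neural crest and muscle precursor genes of the family. Pax3 had 8.94, 9.23 and 8.46 normalised reads in untreated PRC1CKO cells and 661, 549 and 644 after treatment. Replicates differed little on either side, and Pax3 rose by 5.97 on the log2 scale (SE 0.39, adjusted p = 9.2e-18 by limma), the 6th largest change of all rows tested. Pax7, which maintains muscle satellite cells, went from 11.9, 14.6 and 5.07 to 163, 118 and 149 normalised reads. Its lowest treated library stood far above its highest untreated one, and the change was 3.74 (SE 0.42, adjusted p = 4.9e-10).

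Pax1 and Pax9 pattern the sclerotome, and Pax9 also acts in teeth and the pharyngeal pouches. Both were close to absent from untreated PRC1CKO cells. Pax1 had 2.98, 0 and 3.38 normalised reads, from 6 sequenced reads in all, and 83.2, 64.8 and 80.3 after treatment. Pax9 had 2.98, 1.54 and 3.38, from 8 reads in all, and 130, 112 and 92.5. The log2 fold changes were 4.89 (SE 0.57, adjusted p = 9.1e-10) and 4.98 (SE 0.51, adjusted p = 3.0e-11). With so few reads to start from the size of the rise is loosely bounded. Taking 2 reads as 1 fragment, the ratio of pooled fragments was 40.1 for Pax1 (exact 95% interval 13.4 to 197) and 43.8 for Pax9 (16.8 to 162), which covers counting error alone.

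Among Pax2, Pax5 and Pax8, the genes of kidney, midbrain boundary, B cell and thyroid, the responses were unequal. Pax2, needed for kidney, optic stalk and inner ear, rose from 22.3, 39.2 and 38.1 normalised reads to 338, 272 and 330. This was a log2 change of 3.24 (SE 0.34, adjusted p = 5.5e-11). Pax5, the B cell commitment factor, rose from 5.96, 16.9 and 18.6 to 124, 87.0 and 81.1, or by 2.84 (SE 0.41, adjusted p = 1.6e-07). Untreated replicate 1 was the lowest of its group for both genes. Pax8, a regulator of thyroid and kidney development, was already measurable at 35.7, 35.4 and 28.8 and reached 106, 69.4 and 75.0. Its change of 1.28 (SE 0.37, adjusted p = 0.0071) was the smallest of the 8, and it was not called when OHT replicate 1 was left out (1.10, adjusted p = 0.082).

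Pax6, the master regulator of the eye, moved from 50.6, 27.7 and 11.8 to 206, 226 and 234 normalised reads, a log2 change of 3.06 (SE 0.39, adjusted p = 8.2e-09). Its untreated libraries spread over a wider range than its treated ones, and the groups did not overlap. A second Pax6 row that starts further downstream (chr2:105675513-105697364) shares most of these reads and gave 2.77 (SE 0.39). The antisense transcript Pax6os1 overlaps the first bases of Pax6. It had 1.54 to 8.94 normalised reads in untreated and 5.23 to 10.8 in treated PRC1CKO cells and was not called (0.98, SE 0.66, adjusted p = 0.37). Whether reads were counted by strand is not stated in the sources used here, so reads in the 1435 shared bases cannot be assigned to either gene.

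The second comparison concerns catalysis, with RING1A and RING1B still present but inactive. In PRC1CPM cells 5 of the 8 Pax genes were called higher on OHT treatment, against 13.1% of all rows. All 8 had treated libraries above the untreated ones without overlap, as had 18.7% of all rows. The median log2 fold change was 1.60 for the Pax genes and 0.10 for all rows. Pax1, Pax2, Pax3, Pax6 and Pax9 were called, while Pax5, Pax7 and Pax8 were not. Pax1 and Pax9 could be tested only through their treated libraries.

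Pax3 rose from 12.8, 5.65 and 21.7 to 264, 196 and 171 normalised reads in PRC1CPM cells, a log2 change of 4.03 (SE 0.39, adjusted p = 1.9e-11). The untreated libraries differed among themselves by more than in the other line. Pax1 went from 5.11, 1.88 and 2.71 to 84.9, 38.7 and 58.1, or 3.86 (SE 0.57, adjusted p = 6.9e-07). Pax9 went from 2.56, 5.65 and 2.71 to 52.1, 40.2 and 53.7, or 3.47 (SE 0.51, adjusted p = 6.9e-07). The sclerotome pair and Pax3 made up the 3 largest changes among the Pax genes in both lines. Pax2 rose from 48.6, 37.7 and 40.7 to 198, 166 and 126 normalised reads (1.91, SE 0.34, adjusted p = 2.5e-05). Pax6 rose from 30.7, 44.3 and 52.9 to 105, 95.1 and 108 (1.28, SE 0.39, adjusted p = 0.015). The Pax6 call was lost without untreated PRC1CPM replicate 1 (1.07, adjusted p = 0.056), and the second Pax6 row was not called (1.06, adjusted p = 0.058).

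Pax5 had 53.7, 43.4 and 46.1 normalised reads in untreated and 124, 75.8 and 108 in treated PRC1CPM cells (1.07, SE 0.41, adjusted p = 0.071). Pax7 had 32.0, 22.6 and 18.98 against 63.7, 50.3 and 50.4 (1.15, SE 0.42, adjusted p = 0.059). Pax8 had 63.9, 69.7 and 43.4 against 139, 83.5 and 98.6 (0.84, SE 0.37, adjusted p = 0.13). Because the groups did not overlap, each also stood higher in the treated library of all 3 replicate numbers. With the replicate number as a block in limma all 3 were called (adjusted p = 0.0027, 0.0037 and 0.011), as were 17.9% of all rows in that direction. edgeR and DESeq2 on the recovered reads called Pax5 and Pax7 as well, and not Pax8.

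**Figure D2:**
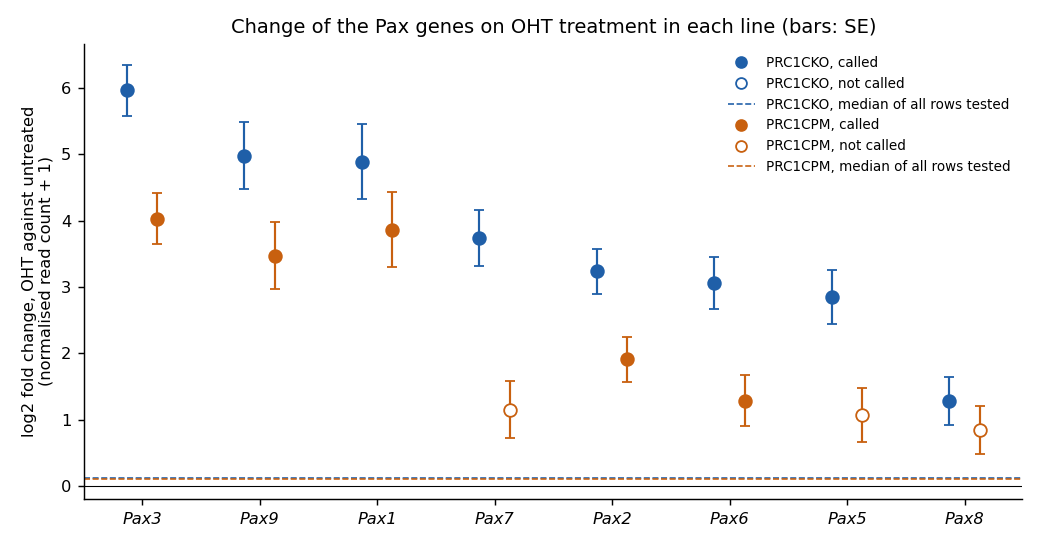
Log2 fold change of each Pax gene on OHT treatment (vertical axis, on the scale of normalised read count + 1) in PRC1CKO cells in blue and PRC1CPM cells in orange, with SE as bars. Filled points were called by limma without the replicate block and open points were not. Dashed lines mark the median of all rows tested, 0.12 and 0.10, and all 16 points lie above them.

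Levels of different genes were compared per kb of gene body. In untreated PRC1CKO cells all 9 genes were low, with Pax6 at 1.06 ± 0.69 (SD, n = 3), Pax8 at 0.605 ± 0.0717 and Pax2 at 0.413 ± 0.117 normalised reads per kb in front. The other 6 lay between 0 and 0.211. Neighbours in this order overlapped in range except Pax8 against Pax2 and Pax5 against Pax4. After OHT treatment Pax6 (7.79 ± 0.50), Pax1 (7.57 ± 0.98), Pax9 (7.15 ± 1.21) and Pax3 (6.44 ± 0.63) formed a top group whose neighbouring ranges overlapped. Pax2 followed at 3.89 ± 0.45, clear of Pax3 above it. Pax8 and Pax7 came next, both at 1.51 to 1.52 and overlapping, and Pax5 was at 0.544 ± 0.129. The order rests on the length used, since exons make up unequal shares of the gene bodies. Per kb of exon, a setting chosen after the data were seen, Pax3 led at 183, followed by Pax2 at 80.0 and Pax6 at 60.8, with Pax1 at 28.8 and Pax9 at 25.7. On that scale Pax8 led in untreated PRC1CKO cells at 12.96, ahead of Pax2 at 8.48 and Pax6 at 8.23.

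In untreated PRC1CPM cells the front of the order was the same, with Pax6 at 1.497 ± 0.393 normalised reads per kb, Pax8 at 1.07 ± 0.25 and Pax2 at 0.526 ± 0.070. After treatment Pax1 was highest per kb of gene body at 6.02 ± 2.31, its lowest library (3.84) just above the highest of Pax6 (3.81). Pax6 stood at 3.62 ± 0.24, Pax9 at 3.12 ± 0.47, Pax3 at 2.20 ± 0.50, Pax2 at 2.03 ± 0.45 and Pax8 at 1.94 ± 0.52, and each overlapped the next. Of the 8 tested genes Pax7 and Pax5 were lowest at 0.577 ± 0.081 and 0.573 ± 0.136, and the untested Pax4 had 0 reads. Per kb of exon the order again differed, with Pax8 first in untreated cells at 22.97, and with Pax3 first in treated cells at 62.4, above Pax2, Pax8, Pax6 and then Pax1 at 22.9.

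**Figure D3:**
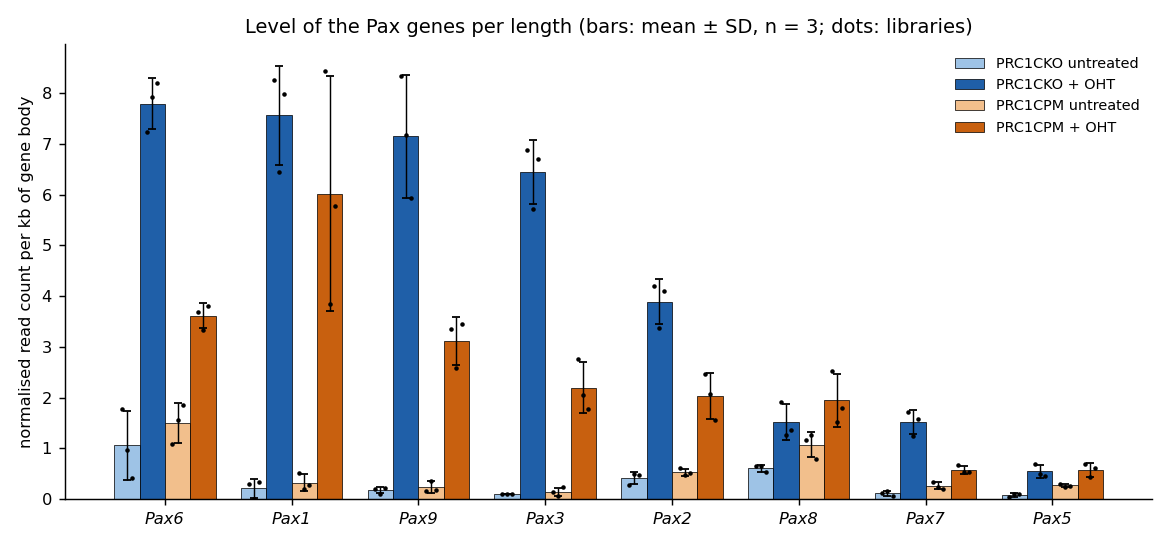
Normalised read count per kb of gene body (vertical axis) for 8 Pax genes in the 4 conditions, as mean ± SD of 3 libraries with each library as a dot. Pax6, Pax1, Pax9 and Pax3 stand at 6.44 to 7.79 in OHT-treated PRC1CKO cells, and among these 4 Pax1 keeps the largest share of that level in OHT-treated PRC1CPM cells.

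Set side by side, the mean normalised read count in OHT-treated PRC1CPM cells was 34.1% of that in OHT-treated PRC1CKO cells for Pax3, 38.2% for Pax7, 43.6% for Pax9, 46.4% for Pax6 and 52.1% for Pax2. It was 79.6% for Pax1, 105% for Pax5 and 128% for Pax8. For the first 5 of these genes every PRC1CPM library lay below every PRC1CKO library, which held for 4.35% of all rows, while the ranges of Pax1, Pax5 and Pax8 overlapped. In the direct test of the treated lines, Pax3 was the one Pax gene called lower in PRC1CPM cells (log2 difference -1.57, SE 0.39, adjusted p = 0.018), against 0.218% of all rows called lower, and none was called higher (1.25% of all rows). The other differences were -1.37 (SE 0.42, adjusted p = 0.093) for Pax7, -1.18 (SE 0.51, adjusted p = 0.33) for Pax9, -1.10 (SE 0.39, adjusted p = 0.16) for Pax6 and -0.95 (SE 0.34, adjusted p = 0.17) for Pax2. For Pax1 (-0.39, SE 0.57), Pax5 (0.07, SE 0.41) and Pax8 (0.35, SE 0.37) the SE was larger than the difference.

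The replicate block called Pax2, Pax6 and Pax7 lower as well as Pax3 (adjusted p = 0.0022, 0.0010, 0.0012 and 1.9e-06), against 1.37% of all rows. A few markers of other cell types also differed between the treated lines: the neural crest marker Tfap2a (-1.92, SE 0.37, adjusted p = 0.0013) and the primitive endoderm marker Gata6 (-1.78, SE 0.32, adjusted p = 0.00039) were called lower and the fibroblast collagen Col1a1 (1.44, SE 0.36, adjusted p = 0.020) higher in PRC1CPM cells. Each was the 1 call in its list, of 6, 6 and 5 tested genes (without the block 0.218% of all rows were called lower and 1.25% higher), and the log2 differences of the neural crest list ran from -2.16 (Tfap2b) to 0.28 (Sox10). Between the untreated lines the log2 differences were -1.08 (SE 0.32) for Gata6, 1.07 (SE 0.36) for Col1a1 and -0.38 (SE 0.37) for Tfap2a, none called. The part of these markers in the Pax3 difference was not tested. The Pax3 call without the block was lost when any OHT-treated PRC1CKO library or OHT-treated PRC1CPM replicate 2 or 3 was left out (adjusted p from 0.062 to 0.13), with log2 differences of -1.43 to -1.74 over all 12 such fits.

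Before treatment the lines differed in Pax5, which was 1.85 higher on the log2 scale in untreated PRC1CPM than in untreated PRC1CKO cells (SE 0.41, adjusted p = 0.0042). It was the one Pax gene called, against 2.21% of all rows called higher, and it was called in each of the 12 fits with a library left out. Pax7 (1.22, SE 0.42, adjusted p = 0.11) and Pax8 (0.79, SE 0.37, adjusted p = 0.30) also had PRC1CPM libraries above all PRC1CKO libraries, as had 9.23% of all rows, and the block called both (adjusted p = 0.0037 and 0.031, against 9.63% of all rows). As a share of the treated level, the untreated level was higher in PRC1CPM than in PRC1CKO cells for all 8 genes, from 5.35% against 2.79% for Pax1 to 55.1% against 39.9% for Pax8. It was 46.5% against 14.2% for Pax5, 44.8% against 7.35% for Pax7, 41.4% against 13.5% for Pax6 and 25.9% against 10.6% for Pax2. Over the whole family, the summed normalised read count rose from 135 ± 14.8 to 1665 ± 156 in PRC1CKO and from 236 ± 11.2 to 850 ± 157 in PRC1CPM cells (SD, n = 3). On average Pax3 made up 6.63% of this sum in untreated and 37.1% in treated PRC1CKO cells, and 5.68% and 24.7% in PRC1CPM cells. The summed counts were not corrected for gene length.

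Whether the effect of OHT differed between the lines was tested as an interaction. All 8 estimates were negative, a smaller rise in PRC1CPM cells, from -0.44 (SE 0.52) for Pax8 to -2.59 (SE 0.60) for Pax7, with a median of -1.64 beside -0.02 for all rows. Without a replicate term limma called none of the 8 (adjusted p from 0.17 to 1.00), against 0.0236% of all rows, and 6 of the 8 had an unadjusted p under 0.05, as had 497 of the 16940 rows. edgeR called none and DESeq2 called Pax7 (adjusted p = 0.011) among 15 of the 16940 rows. With the replicate number as a block limma called 5 of the 8 (Pax2, Pax3, Pax5, Pax6 and Pax7), among 324 of all rows. The numbers were not taken as pairing in this test. Whether a Pax gene was called here thus depended on how the replicate number was treated. The comparisons above share libraries: the interaction uses all 12, and each other pair of comparisons that names the same condition uses its 3 libraries in both.

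Pax proteins work with cofactors, among them Eya and Dach factors, the homeodomain factor Six2, the Groucho-like TLE repressors and the adaptor encoded by Paxip1, and they switch on later tissue genes. Of 48 such cofactor and target genes, 40 were tested; 23 (57.5%) rose in PRC1CKO cells and 18 (45%) in PRC1CPM cells, against 16.5% and 13.1% of all rows called higher, and none fell, against 3.09% and 1.4% of all rows called lower. Their median log2 fold changes were 1.503 and 1.17. Of the 13 cofactors, 6 rose in PRC1CKO and 5 in PRC1CPM cells, with medians of 0.46 in each.

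Six2, a kidney progenitor factor, went from 5.56 ± 5.55 to 76.8 ± 4.12 normalised reads in PRC1CKO cells (log2 fold change 3.90, SE 0.52, adjusted p = 3.3e-08). Neither of the abundant cofactors Paxip1 and Tle3 was called. Paxip1 was at 3111 ± 598 and 3324 ± 238 (0.11, SE 0.21) and Tle3 was at 3315 ± 383 and 3432 ± 220 (0.05, SE 0.21). Eya1, a phosphatase that acts in ear and kidney development, was at 229 ± 78.2 and 306 ± 32.5 and was not called (0.46, SE 0.29, adjusted p = 0.32). Lhx1, a kidney and head organiser gene, changed by 3.91 (SE 0.66, adjusted p = 5.2e-06), and Lbx1, a marker of migrating muscle precursors, by 3.70 (SE 0.68, adjusted p = 2.3e-05).

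By tissue, and beside the same 16.5% and 13.1% of all rows, all 5 kidney and ear targets rose in PRC1CKO cells and 4 in PRC1CPM cells. Muscle and neural crest targets rose in 4 of 7 cases in each line, eye and neural targets in 4 and 3 of 5, and skeletal and tooth targets in 3 and 1 of 3, where 1 call of 3 is near the background. None of the 3 thyroid targets and neither of the 2 tested B cell targets (Cd79a and Blnk) was called in either line, although Pax8 and Pax5 themselves rose in PRC1CKO cells. The muscle gene Myf5 and the hormone genes Ins1, Ins2 and Gcg did not pass the read filter, and Ins1 and Gcg had 0 reads in all 12 libraries.

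**Figure D4:**
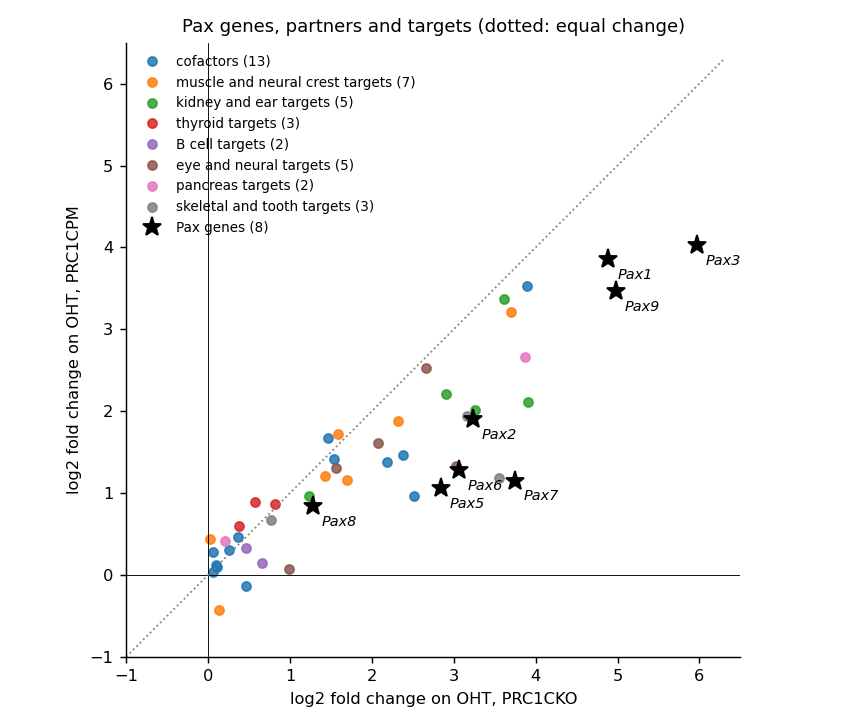
Log2 fold change on OHT treatment in PRC1CKO cells (horizontal axis) and PRC1CPM cells (vertical axis) for the 8 Pax genes (stars) and 40 cofactor and target genes (dots, coloured by list, with the number of genes in brackets). All 8 stars lie below the dotted line of equal change, with Pax3 farthest to the right at 5.97 and 4.03; the interaction test in limma, with no replicate term, called none of them.

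The genes flanking each Pax locus were examined as well. Of the 18 nearest genes on either side, 14 were tested, and 4 (28.6%) rose in PRC1CKO and 3 (21.4%) in PRC1CPM cells, beside 16.5% and 13.1% of all rows, so that the counts lay near the background, with medians of 0.48 and 0.33. Both neighbours of Pax9 (chr12:56695639-56711230) rose in both lines. Slc25a21, which lies 1403 bases beyond it on the opposite strand and encodes a mitochondrial carrier, went from 15.1 ± 13.7 to 312 ± 77.6 normalised reads in PRC1CKO cells (log2 fold change 4.73, SE 0.46) and changed by 2.47 (SE 0.46) in PRC1CPM cells. Nkx2-9, a homeobox gene 82.4 kb to the other side, changed by 2.43 and 2.27 (SE 0.49 in each). Sgpp2, 113 kb from Pax3, rose by 3.01 and 1.80 (SE 0.29 in each), and Psd4, 11.8 kb from Pax8, by 0.77 (SE 0.27, adjusted p = 0.037) in PRC1CKO cells.

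For the 5 genes called in both lines, the genes with the most similar profile over the 12 libraries were found by Pearson correlation of log2(normalised read count + 1). The closest were Abcc8 for Pax1 (r = 0.993), Mecom for Pax2 (0.981), Pcdh10 for Pax3 (0.991) and Sec1 for Pax6 (0.979). Next came Kcns1 and Grp for Pax1, Runx2 and Pax3 for Pax2, Lhx2 and A830082K12Rik for Pax3, and Slc25a21 and Mbnl1 for Pax6. For Pax9, AA467197 (0.991) and Gda (0.987) were among the 3 closest. Among the Pax genes themselves the coefficients ran from 0.691 for Pax5 with Pax6 to 0.979 for Pax2 with Pax3. The libraries share 2 lines and 1 treatment, so the contrast between treated and untreated cells enters every coefficient, and no p-value is given.

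Markers of ESCs and of other cell types were read in the same libraries. Of 9 ESC markers with a row, 3 (Sox2, Utf1 and Fgf4) fell in PRC1CKO and 1 (Fgf4) in PRC1CPM cells, against 3.09% and 1.4% of all rows called lower, and none rose. Their summed normalised read count was 73019 ± 17510 before and 54971 ± 4298 after treatment in PRC1CKO and 68876 ± 12496 and 60629 ± 17295 in PRC1CPM cells, with Tdgf1 the most abundant. All 9 were read in all 4 groups. Pou5f1 had group means of 4734 and 3126 in untreated and treated PRC1CKO cells and was not called (-0.56, adjusted p = 0.078), while Sox2 (-0.89), Fgf4 (-1.06) and Utf1 (-0.79) fell there.

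Lists of other lineages moved with the Pax genes, and their counts stand beside 16.5% (PRC1CKO) and 13.1% (PRC1CPM) of all rows called higher. In the following, the most abundant gene of a list is that over all libraries. Primitive endoderm markers rose in 4 of 6 cases in PRC1CKO and 6 of 6 in PRC1CPM cells, with summed counts of 797 to 2495 and 542 to 1401 (most abundant Dab2). Neural progenitor markers rose in 5 and 3 of 6, Pax6 being one of them, with sums without Pax6 of 829 to 1810 and 1104 to 1647 (most abundant Nes). Neural crest markers rose in 4 and 3 of 6, with sums of 502 to 1160 and 439 to 886 (most abundant Ets1). Kidney markers rose in 5 and 4 of 5, with sums of 84.5 to 842 and 102 to 566 (most abundant Wt1). Tfap2b of the neural crest list had 0 reads in untreated PRC1CKO cells and Osr1 of the kidney list had 0 in untreated PRC1CPM cells.

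The markers of other Pax-expressing tissues and of fibroblasts are read against the same 16.5% and 13.1%; with 3 to 5 tested genes in a list, 1 call is near that background. Thyroid markers rose in 2 of 4 in each line (Nkx2-1 and Foxe1), with sums of 76.6 to 212 and 111 to 233, and Nkx2-1 had 0 reads in untreated PRC1CKO cells. Of 4 tested paraxial mesoderm and muscle markers 1 (Mesp2) rose in PRC1CKO and none in PRC1CPM cells, with sums of 116 to 137 and 119 to 144 (most abundant Tbx6), while Myf5 and Myog did not pass the read filter. Of 3 tested B cell markers Ebf1, the most abundant, rose in both lines, with sums of 499 to 2172 and 473 to 1303, while Ptprc did not pass the filter. Of 5 tested fibroblast markers 1 (Thy1) rose and 1 (Postn) fell in PRC1CKO cells and none was called in PRC1CPM cells, with sums of 3473 to 3519 and 7618 to 8489 and a range of 3715 to 14507 among the untreated PRC1CPM libraries (most abundant Col1a1). Several genes stand in both the marker and the target lists, such as Wt1, Lhx1, Six2 and Sox10. The part of these lineage programmes in the Pax values was not tested.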

How the data were processed

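The data were 12 cRNA-seq libraries of PRC1CKO and PRC1CPM ESCs. The titles gave each library its line, treatment and replicate number; the matched gDNA-seq libraries, which the authors used for calibration, were not analysed here, and the scale without that correction was rebuilt from the gDNA-seq read totals that the study lists. The submitters' processing notes name STAR, Bowtie2, SAMtools, bedtools, deepTools and DESeq2 and the builds mm10 and dm6. The authors removed rDNA reads and PCR duplicates, kept uniquely aligned reads and counted them over gene bodies. The deposited values are a signal, the normalised read count, which is the read count divided by a spike-in size factor corrected with gDNA-seq. The authors also deposited log2 fold changes and adjusted p-values of their own comparisons and a list of partially derepressed genes, and none of these was used.

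Within 0.02 of a read, 100% of the values in every library were whole multiples of 1 step, which gave back the reads. Because the table did not hold raw counts, the count tests served as alternatives. The 16940 rows in which 3 or more libraries reached 10 reads were fitted as log2(normalised read count + 1) with limma 3.58.1 in R 4.3.3 (1 mean per condition, mean-variance trend, Benjamini-Hochberg adjustment over all rows). Calls needed an adjusted p under 0.05 and, except for the interaction, a fold change above 1.5. Adjusted p-values in the text come from this fit unless another tool is named. Fold changes on this scale understate the change of genes with few reads. Rows with fewer than 10 reads in every untreated library passed the filter only through treated libraries. Pax1, Pax9 and listed genes such as Nkx2-1, Tfap2b and Osr1 were among them, so a rise was a condition of testing them. edgeR 4.0.16 (quasi-likelihood) and DESeq2 1.42.0 on the recovered reads called 3251 and 3317 rows in PRC1CKO and 2498 and 2579 in PRC1CPM cells, beside 3311 and 2463 with limma. On simulated data limma recovered 147 of 200 changed genes in PRC1CKO cells (92 of 100 changed 4-fold and 55 of 100 changed 2-fold) with 7 false calls among 16940 rows, 109 of 150 in PRC1CPM cells (8 false) and 25 of 50 changed interactions (3 false). The simulated libraries had no effect of the replicate number and far fewer changed rows than were called in the data. These rates need not hold for the real libraries.

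Deviations of same-numbered libraries from their group means correlated at 0.246 to 0.438 within PRC1CPM, at 0.140 to 0.225 between the treated and at 0.186 to 0.377 between the untreated lines, so replicate numbers were taken as pairing these comparisons. The bar was a correlation above 0.1, which 17 of the 18 same-number values passed. Within PRC1CKO the lowest of the 3 values was 0.0988, just under it, so the numbers were not taken as pairing there or in the interaction. The main calls of every comparison were made without a replicate term. The pairing comes from the data; the labels give the numbers alone.

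The genes named were the 9 Pax genes, Ring1 and Rnf2, flanking and overlapping genes, the 3 closest profiles per gene, the 4 largest increases among the cofactors and targets, Paxip1, Tle3 and Eya1; others named beside a count were chosen after their values were seen. Some genes that the rule or a list holds are not reported here. The Pax genes and the lists of cofactors, targets and markers were chosen with earlier results of these data known. Alternatives were TMM and median-of-ratios scales, the spike-in without the gDNA correction, no read filter, a pseudocount of 0.1, a 2-fold threshold, 1 line alone, the replicate block, edgeR, DESeq2 and each library left out. Start coordinates are the deposited ones with 1 added, on GRCm38; exon, promoter and CpG values used RefSeq and its genome. Between 73.4% and 77.4% of the values below 100 reads were even numbers of reads, so both mates of a pair were mostly counted, and counting error is larger than the read number alone gives. Python 3.11.15 with pandas 2.3.3, numpy 2.4.6, scipy 1.17.1, pysam 0.24.0 and matplotlib 3.10.9 was used for summaries and plots.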

Additional observations from a re-analysis of the deposited data

How the results depend on the processing

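The rise of the 8 Pax genes in PRC1CKO cells was called under each alternative that kept all libraries, and 7 to 8 were called with a library left out. Of 856 values of single Pax genes under the alternatives, 779 kept direction and side of the threshold. In PRC1CPM cells 8 genes in place of 5 were called when the gDNA-seq correction was left out of the spike-in scale, with the replicate block and with the block in edgeR, and 5 to 7 with a library left out; 7 were called with TMM, median-of-ratios scaling, edgeR and DESeq2. Between the treated lines the count of 1 became 3 with TMM and with median-of-ratios scaling, 2 with edgeR, 5 with DESeq2, 4 with the replicate block, 5 with the block in edgeR, 0 without the read filter and 0 to 2 with a library left out. Between the untreated lines it became 2 with TMM and median-of-ratios scaling, 3 with the replicate block alone or in edgeR, and 1 to 3 with a library left out. For the interaction 1 gene was called with DESeq2, 0 to 2 with a library left out, and 5 with the replicate block alone (Pax2, Pax3, Pax5, Pax6 and Pax7, among 324 of all rows) or in edgeR. In deviations from the group means, compared between groups, each of the 12 libraries correlated best with a library of its own number. The replicate block changed no Pax call in PRC1CKO cells, while the calls over all rows there went from 3311 to 4258. The calls over all rows rose as well: between treated lines from 249 to 775 with TMM, 776 with median-of-ratios scaling, 327 with edgeR, 429 with DESeq2 and 1363 with the block, between untreated lines from 455 to 1006 with TMM, 1042 with median-of-ratios scaling and 1884 with the block, and in PRC1CPM cells from 2463 to 2996, 2982, 2498, 2579 and 3494 in the order given for treated lines.

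Signs reversed in small differences that were not called. The Pax5 difference between treated lines was -0.026 with TMM, -0.032 with median-of-ratios scaling and -0.076 to 0.27 with a library left out. Between untreated lines Pax1 ranged from -0.051 to 1.01 and Pax3 from -0.043 to 0.84 when a library was left out, and the Pax8 interaction was 0.0048 without the gDNA-seq correction. The cause was not tested.

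The scale also moved the background. The median of all rows stood at 0.12 (PRC1CKO) and 0.10 (PRC1CPM), became -0.02 and -0.0037 under TMM, and moved to -0.04 and 0.39 when the gDNA-seq correction was dropped. TMM changed the rows called higher and lower from 2787 and 524 to 2782 and 1226 in PRC1CKO cells, from 2226 and 237 to 2412 and 584 in PRC1CPM cells (2370 and 612 with median-of-ratios scaling), from 212 and 37 to 527 and 248 between treated lines, and from 374 and 81 to 675 and 331 between untreated lines. Without the gDNA-seq correction the last 3 of these gave 3428 and 68, 441 and 21, and 130 and 148. Depth limits the untreated levels of Pax1 and Pax9, which rest on 6 to 10 reads per condition, and of Pax4.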
